A study of Homo sapiens with 6 samples.

Results

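The genes described here are 10 chloride channel genes that can be expressed in the retinal pigment epithelium (RPE), the bestrophins BEST1 and BEST3, the chloride intracellular channel genes CLIC1, CLIC3, CLIC4, CLIC5 and CLIC6, the CLC family genes CLCN2 and CLCN3, and CFTR. They were chosen by name and selected on their normalised counts in the knockout and wild type libraries, among them the lower values of CLIC6 in the knockout and the scattered values of BEST1, so their differences between the lines are given as a description. No p value of theirs is printed for that comparison, only the number of genes called beside the share of all genes called. Of the 10 genes, 9 had a row among the 37902 genes of the deposited table, and 6 reached a mean of 10 normalised counts across all 6 libraries and were therefore among the 14684 genes tested. CLIC1 was not analysed here.

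The RPE moves chloride and water from the retinal side to the blood side, and several families of proteins give it chloride conductance. Bestrophin-1 is a calcium-activated anion channel of the basolateral membrane of the RPE, and mutations of BEST1 cause Best vitelliform macular dystrophy. The CLIC proteins are unusual because they exist in a soluble form, with a fold related to glutathione transferases, and in a membrane form. Of the CLC family, CLCN2 encodes a plasma membrane channel that opens on hyperpolarisation and whose loss in mice is followed by retinal degeneration, and CLCN3 encodes a chloride and proton exchanger of endosomes. CFTR is a chloride channel of epithelia that is opened by cAMP signalling.

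The samples were ARPE-19 cells, an established human RPE cell line, in the wild type (WT) state and as the POLDIP2 KO line, with 3 biological replicates of each under regular maintenance at day 3. POLDIP2 KO was derived from ARPE-19 by lentiviral delivery of SpCas9 with an sgRNA against the POLDIP2 coding sequence and by puromycin selection of the transduced cells, with no cloning step described, so it is a selected population. The methods describe no vector control for the WT cells. Polyadenylated RNA was sequenced in stranded single-end libraries, and the deposited values are counts per gene divided by a size factor for each library (normalised counts). Between 31532797 and 45795509 reads were recovered per library, and 3 reads, the floor used here, correspond to 2.44 to 3.69 normalised counts.

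Values of single libraries are given below in the order of replicates 1, 2 and 3. POLDIP2, the targeted gene, measured 3919, 4827 and 4798 normalised counts in the WT libraries against 1063, 1248 and 1143 in the POLDIP2 KO libraries, without overlap. Of 17 RPE markers, 12 passed the filter. BEST1, selected on these values, is on that list, passed the filter and had a higher mean log2 value in POLDIP2 KO. KRT8 and KRT18 lay between 29007 and 48481 normalised counts in all 6 libraries and MITF and OTX2 were detected in each, whereas 8 of the 12 were lower in POLDIP2 KO, none with an adjusted p value under 0.05 by limma and 1 with an unadjusted one. Among them, the retinoid enzyme gene LRAT had 106, 75.3 and 29.2 normalised counts for WT, compared with 22.1, 24.4 and 28.8 for POLDIP2 KO. SERPINF1, which encodes a secreted factor of the RPE, had 103, 168 and 108 for WT, compared with 101, 74.1 and 49.6 for POLDIP2 KO. These were the 2 of the 12 without overlap between the lines, against 10.9% of all genes tested. RPE65, the retinoid isomerase of mature RPE, and TTR were listed at 0 throughout. Of the 6 macrophage markers, 2 passed the filter, AIF1 and CD163 were listed at 0 throughout, and the list summed to 52.0, 55.2 and 55.3 normalised counts for WT, compared with 25.8, 30.9 and 27.8 for POLDIP2 KO, both tested markers being lower in POLDIP2 KO without an adjusted p value under 0.05 by limma. These lower markers moved in the direction of CLIC6, described below, and their part in its values was not tested. The photoreceptor markers GNAT1 and ARR3 were listed at 0 in every library, and 2 of the 6 on that list passed the filter. A value of 0 does not always mean absence in this table, since PRKACA, a protein kinase A subunit that is used by most cells, was listed at 0 in every library other than WT replicate 3, where it had 26.1 normalised counts.

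The levels of the genes were first compared with each other, as normalised counts per kilobase (kb) of annotated exon. CLIC4, which takes part in tubule formation and in signalling downstream of TGF-beta, had the highest level, with a mean ± SD of 6485 ± 1996 per kb in WT (n = 3 libraries) and 6642 ± 2170 in POLDIP2 KO (n = 3). CLIC6 followed in WT at 1059 ± 233 per kb and CLCN3 at 838 ± 76.0, and their WT libraries overlapped. In POLDIP2 KO, CLCN3 at 898.7 ± 17.8 per kb lay above CLIC6 at 428.5 ± 57.4, without overlap. BEST3, BEST1 and CLCN2 came next in both lines, at 64.5, 38.4 and 31.4 per kb in WT and at 59.9, 50.9 and 31.5 in POLDIP2 KO, and each overlapped with its neighbour in the order. The RNA of the bestrophins was thus present at a level far under that of CLIC4, CLCN3 and CLIC6. CLIC3, CLIC5 and CFTR had means under 4 per kb.

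**Figure D1:**
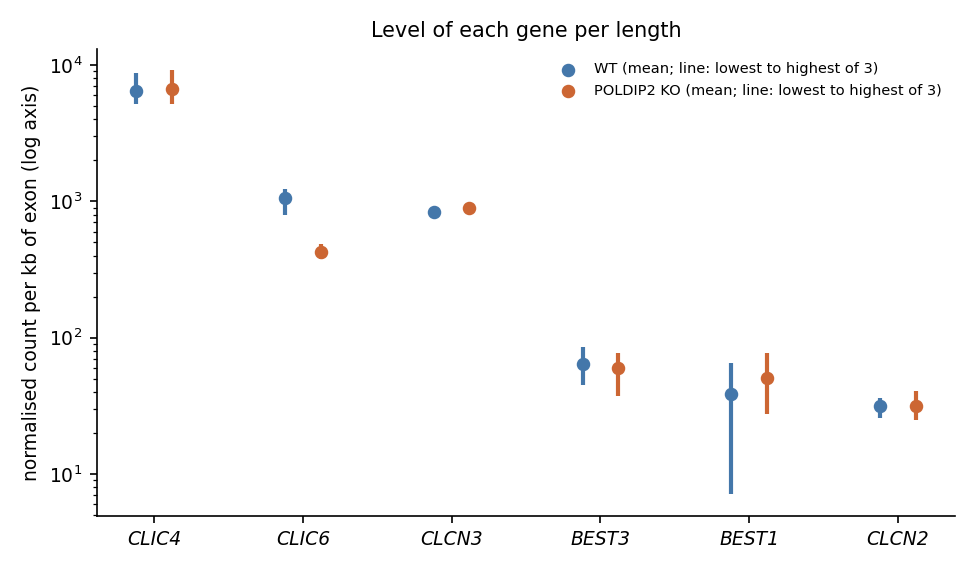
Level of the 6 chloride channel genes that passed the filter, as normalised count per kb of exon on a log axis, in WT and POLDIP2 KO. Points are means and lines run from the lowest to the highest of 3 libraries. CLIC4 is highest, CLIC6 and CLCN3 exchange places between the lines, and BEST1 in WT has the longest line, from 7.07 to 64.7.

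RefSeq promoter windows (GRCh38.p14), which run from 250 bases before to 50 bases after a transcription start, were at hand for 7 of the 10 genes. The windows of CLIC4 and CLCN3 are shown because these are the most abundant of the 6 of those genes with a row in the table, and for CLCN3 the first of 2 windows is given, the second holding none of the motifs. Capitals mark matches, on either strand, to the GC box GGGCGG, the cAMP response element TGACGTCA, the TATA box TATAAA and the CCAAT box CCAAT.
CLIC4, chr1:24745197-24745496, plus strand: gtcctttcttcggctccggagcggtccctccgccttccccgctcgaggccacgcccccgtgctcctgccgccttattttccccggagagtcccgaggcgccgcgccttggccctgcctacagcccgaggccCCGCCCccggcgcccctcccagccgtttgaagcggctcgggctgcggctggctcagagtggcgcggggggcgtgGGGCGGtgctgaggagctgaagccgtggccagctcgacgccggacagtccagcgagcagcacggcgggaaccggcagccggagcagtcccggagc
CLCN3, chr4:169620328-169620627, plus strand: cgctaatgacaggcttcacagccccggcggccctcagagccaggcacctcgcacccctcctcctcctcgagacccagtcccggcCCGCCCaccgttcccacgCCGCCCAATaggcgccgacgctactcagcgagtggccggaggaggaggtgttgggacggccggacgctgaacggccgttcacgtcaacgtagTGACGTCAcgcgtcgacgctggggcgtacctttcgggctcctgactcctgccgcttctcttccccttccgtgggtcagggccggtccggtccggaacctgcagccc
The CLIC4 window held 2 GC boxes and no match to the other 3 motifs. The CLCN3 window held 2 GC boxes, 1 CCAAT box that overlaps the second of them, and 1 complete cAMP response element. Among all 35116 windows of the RefSeq table, 45.0% held a GC box, 34.6% a CCAAT box, 11.5% a TATA box and 1.85% the cAMP response element. These are matches of letters, and no binding was measured.

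CLIC6 (ENSG00000159212, chromosome 21 of GRCh38, 34668994 to 34718227, plus strand) is the CLIC gene with the longest N-terminal extension and is known from secretory epithelia such as the choroid plexus. Its normalised counts were 5223, 4922 and 3376 for WT, compared with 1596, 2082 and 1793 for POLDIP2 KO. All 3 POLDIP2 KO libraries lay under all 3 WT libraries. The mean ± SD was 4507 ± 991 for WT (n = 3) and 1823 ± 244 for POLDIP2 KO (n = 3), so POLDIP2 KO was at 0.405 of WT. On the scale of log2(normalised count + 1) the difference of POLDIP2 KO minus WT was -1.29 with a standard error of 0.19, a 2.44-fold lower level. Within the pairs of same-numbered libraries, POLDIP2 KO was at 0.305, 0.423 and 0.531 of WT. When single libraries were left out, the difference stayed between -1.48 and -1.17.

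CLIC6 was the only one of the 6 tested genes whose libraries did not overlap between the lines, against 10.9% of all genes tested, and 5.44% of all genes had every POLDIP2 KO library under every WT library. By limma on log2 values (Benjamini-Hochberg adjusted p under 0.05 with more than 1.5-fold change), 0 of the 6 genes were called, beside 0.170% of all genes, of which 0.0885% were lower and 0.0817% higher in POLDIP2 KO. With replicate number as a block, 0 of the 6 were called (0.204% of all genes). By the edgeR quasi-likelihood test on the recovered reads 0 of the 6 were called (0.116% of all genes), and by DESeq2 on those reads 1 was, CLIC6 (1.69% of all genes). At an unadjusted limma p value under 0.05 stood 1 of the 6, again CLIC6, and 6.48% of all genes. Because CLIC6 was listed for this difference, these counts describe it and are not evidence for it. The median log2 difference of the 6 genes was 0.01, and that of all genes tested was -0.00029.

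**Figure D2:**
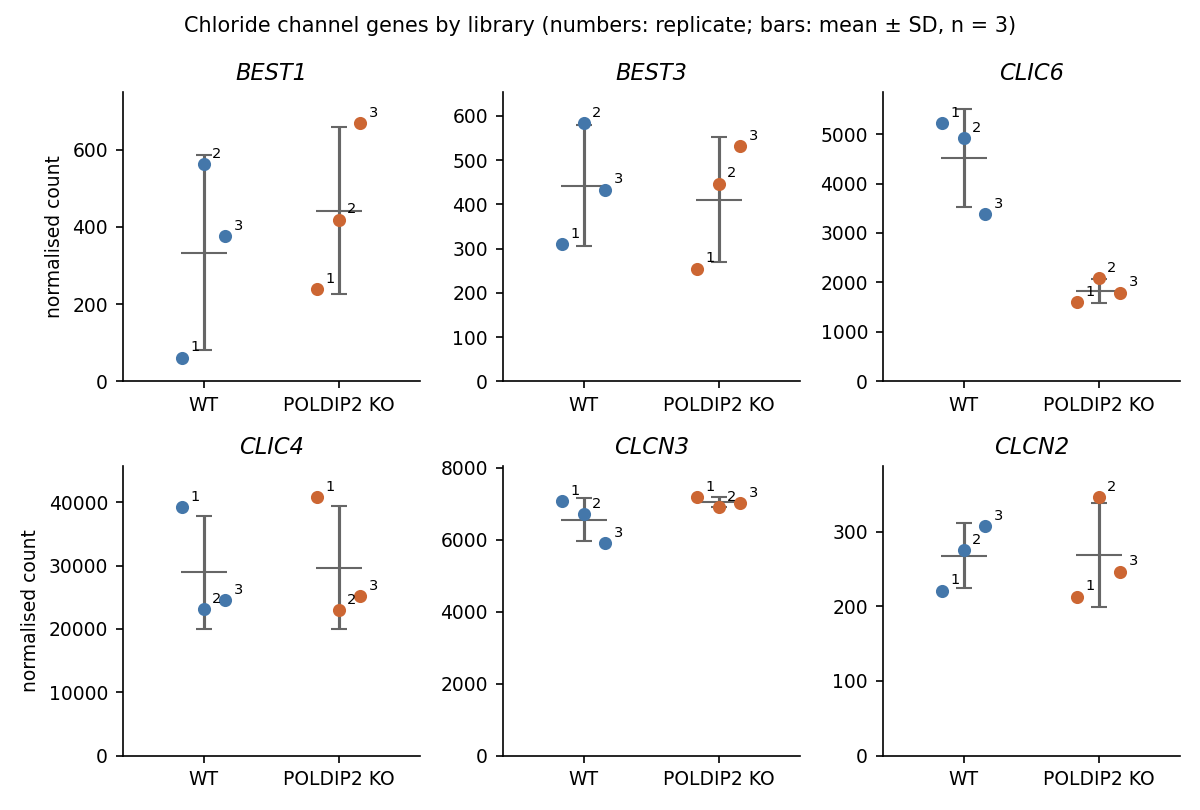
Normalised counts (linear axes from 0) of the 6 tested chloride channel genes in each library of WT and POLDIP2 KO, with replicate numbers beside the points and the mean ± SD of 3 libraries. The lines are apart for CLIC6 only among these 6 genes, and in both lines replicate 1 is lowest for BEST1 and BEST3 and highest for CLIC4.

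BEST1 (ENSG00000167995, chromosome 11, plus strand) had its lowest value in replicate 1 of either line, with 61.4 normalised counts for WT, compared with 239 in POLDIP2 KO. The other 4 libraries lay between 377 and 669. The pairs of same-numbered libraries did not move one way, since POLDIP2 KO was at 3.89, 0.746 and 1.78 times WT in pairs 1, 2 and 3. The log2 difference was 0.78 with a standard error of 0.82, and it was -0.18 without WT replicate 1 and 1.41 without WT replicate 2. The pooled SD of BEST1 within a line was 1.31 on the log2 scale, against a median of 0.24 over all genes tested, and 574 of the 14684 genes had a larger one.

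The BEST1 gene overlaps FTH1, which encodes the heavy chain of the iron store ferritin and lies on the opposite strand, by 5798 bases, and 1267 of the 8688 annotated exon bases of BEST1 (14.6%) are also exon of FTH1. FTH1 had normalised counts of 68139, 167200 and 192169 for WT, compared with 90440, 170447 and 199433 for POLDIP2 KO. Replicate 1 was therefore lowest for FTH1 too in both lines. FTH1 exceeded BEST1 by 298 to 1110 times. The libraries were made with a kit that keeps the strand, but the strand setting used for quantification is not given in the sources used here, and the part of FTH1 reads in the BEST1 values was not tested.

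BEST3 (chromosome 12), a bestrophin better known from muscle and vessels, had 311, 584 and 433 normalised counts for WT, compared with 255, 447 and 531 for POLDIP2 KO. Its log2 difference was -0.13 with an interval (95%) from -0.92 to 0.67, which leaves room for changes past 1.5-fold in either direction. CLIC4 (chromosome 1) had 39236, 23170 and 24504 in WT and 40796, 23028 and 25188 in POLDIP2 KO. Same-numbered libraries of CLIC4 lay close together, with POLDIP2 KO at 1.04, 0.994 and 1.03 of WT. CLCN3 (chromosome 4) had the narrowest spread of the 6 genes, with 7064, 6714 and 5903 in WT and 7179, 6901 and 7024 in POLDIP2 KO. The interval of its log2 difference, -0.14 to 0.35, lay within 1.5-fold in either direction, as a description of these libraries. CLCN2 (chromosome 3) had 221, 275 and 307 in WT and 213, 346 and 246 in POLDIP2 KO, with a log2 difference of -0.01 and an interval from -0.57 to 0.55. CLCN2 overlaps FAM131A on the opposite strand in 24.7% of its exon bases, and FAM131A had 447 to 647 normalised counts per library.

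**Figure D3:**
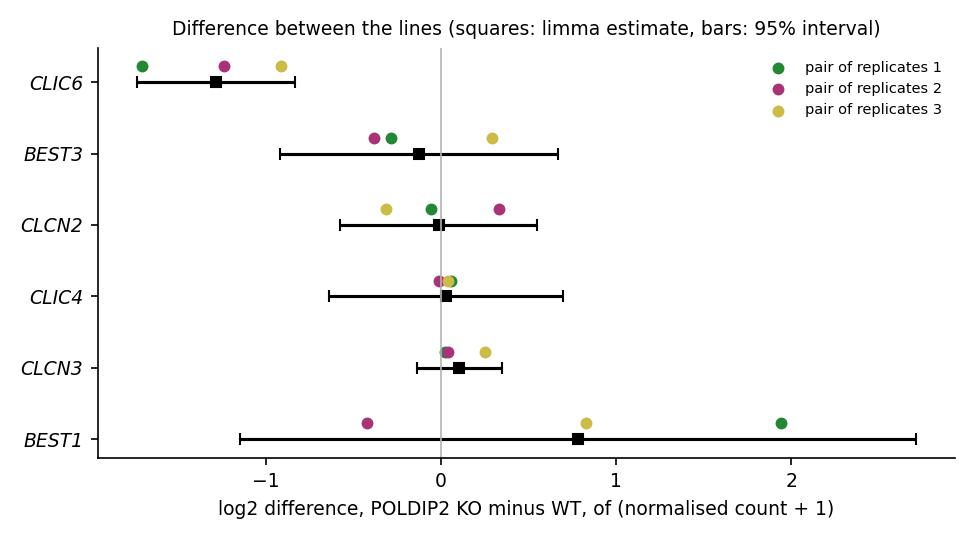
Difference of POLDIP2 KO minus WT on the scale of log2(normalised count + 1) for the 6 tested chloride channel genes. Squares and bars are the limma estimates with 95% intervals, and coloured points are the pairs of same-numbered libraries. CLIC6 lies at -1.29 with all 3 pairs under 0, and the pairs of BEST1 lie on both sides of 0.

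The remaining genes were at or near the floor. CLIC3, described in fibroblasts and tumours as a secreted oxidoreductase, had 3, 0 and 1 recovered reads for WT, compared with 7, 0 and 1 for POLDIP2 KO. CLIC5, which links membranes to the actin cytoskeleton in stereocilia and podocytes, had 2, 4 and 0 in WT and 1, 4 and 0 in POLDIP2 KO. CFTR had 1 read in WT replicate 1 and was listed at 0 in the other 5 libraries. Of the genes that overlap CFTR, WNT2 and ASZ1 were listed at 0 throughout, and CTTNBP2 had 67.1, 95.3 and 114 normalised counts for WT, compared with 201, 125 and 239 for POLDIP2 KO (limma adjusted p = 0.547). No difference between the lines was detectable at these counts for CLIC3, CLIC5 or CFTR.

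Replicate number was tested with limma for all genes, as an F test with the line in the model. The chloride channel genes were selected on these same libraries, and BEST1 for its scatter among them, so counts that include BEST1 describe the choice and are not evidence. The labels do not say what a number marks, such as a day or a passage. Of the 6 genes 1 was called at a Benjamini-Hochberg adjusted p value under 0.05, CLIC4, against 0.913% of the 14684 genes tested, and 3 of the 6, CLIC4, BEST1 and BEST3, had an unadjusted p value under 0.05, against 18.9%. CLIC4 was higher in replicate 1, with 39236 and 40796 normalised counts against 23028 to 25188 in the other 4 libraries, without overlap, which is 1.67-fold higher on average (limma F test, adjusted p = 0.0407). That call is close to the threshold. The adjusted p value of CLIC4 was 0.0501 without the filter, 0.0539 by edgeR, 0.21 by limma without the trend and 1.7e-16 by DESeq2, and it ranged from 0.105 to 0.298 by limma with any 1 of the 6 libraries left out, where the lone library of a number is assumed to vary like the others.

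BEST1 and BEST3 were lower in replicate 1 than in replicates 2 and 3, by 2.89 and 0.69 on the log2 scale in WT and by 1.15 and 0.93 in POLDIP2 KO. For BEST3 the limma adjusted p value for replicate number was 0.18, with 0.078 to 0.298 over the alternatives with all libraries. None is printed for BEST1, which was listed for its scatter among these same libraries. By DESeq2, 2 of the 6 genes were called (10.3% of all genes), CLIC4 and BEST1, of which BEST1 was listed for such scatter, and by edgeR 0 were (0.484% of all genes). For CLIC6, CLCN2 and CLCN3 the adjusted p values were 0.507, 0.412 and 0.653, and replicate 1 of CLIC6 was highest in WT but lowest in POLDIP2 KO.

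Other genes moved with the replicate number beside these channels. FTH1 was lower in replicate 1 (limma adjusted p = 0.036), a call lost without the trend (adjusted p = 0.201) and with any 1 library left out (0.0888 to 0.233). Of 10 mesenchymal markers, 3 were called, against 0.913% of all genes, and 7 had an unadjusted p value under 0.05, against 18.9%. The 3 called were higher in replicate 1 of both lines. With any 1 library left out, 0 to 2 of all 14684 genes were called by replicate number. The fibronectin gene FN1 had 78077 and 95744 normalised counts in the replicates 1 of WT and POLDIP2 KO against 21007 to 34562 in the other 4 libraries (adjusted p = 0.02), the smooth muscle gene TAGLN had 35183 and 51738 against 1425 to 5461 (adjusted p = 0.0282), and the collagen gene COL1A1 had 2147 and 6956 against 320 to 1953 (adjusted p = 0.0208), all by the limma F test. The sum of the 10 markers was 305222 and 362333 normalised counts in the replicates 1 and 173903 to 208492 in the others. Between the lines, 9 of the 10 were higher and 1 lower in POLDIP2 KO, with a median log2 difference of 0.28. By limma 0 of the 10 were called between the lines (0.170% of all genes), and 1 was with replicate number as a block (0.204%). The part of these genes in the values of CLIC4, BEST1 and BEST3 was not tested.

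**Figure D4:**
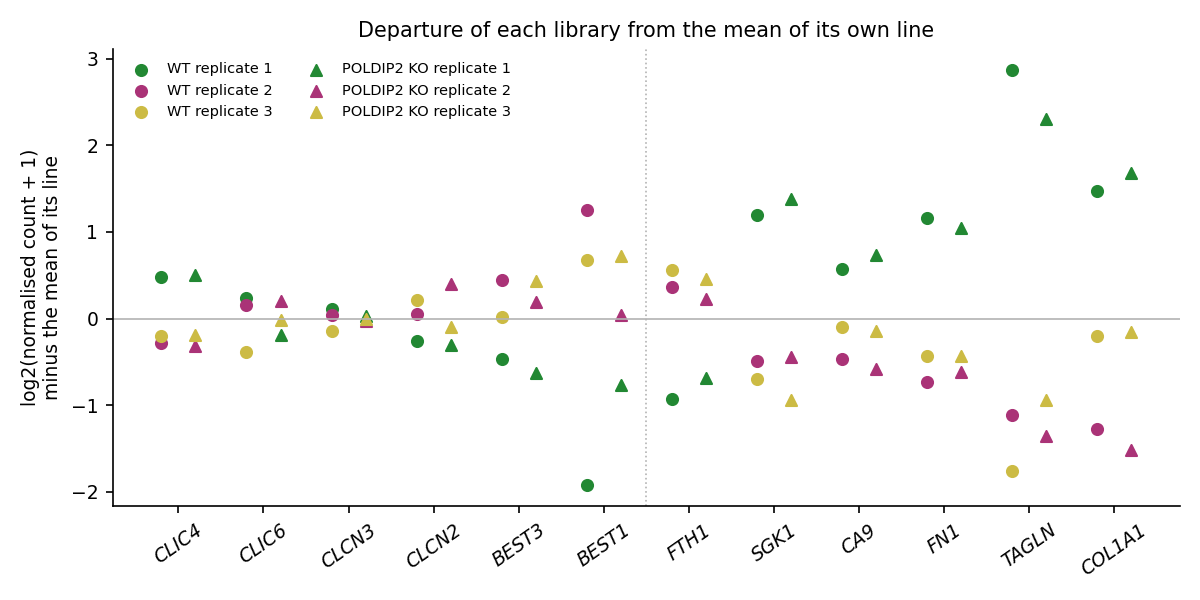
Each library's log2(normalised count + 1) minus the mean of its own line, for the 6 chloride channel genes (left of the dotted line) and for FTH1, SGK1, CA9, FN1, TAGLN and COL1A1. Circles are WT, triangles POLDIP2 KO, and colours the replicate numbers. Replicate 1 is above the mean in both lines for CLIC4, CLCN3, SGK1, CA9, FN1, TAGLN and COL1A1 and under it for CLCN2, BEST3, BEST1 and FTH1.

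The other genes of chloride and fluid transport were compared between the lines in 4 lists of 98 genes, of which 97 had a row and 68 were tested. None of the 68 was called by limma, beside 0.170% of all genes, and 5 had an unadjusted p value under 0.05, beside 6.48%. By edgeR (0.116% of all genes), by DESeq2 (1.69%) and by limma with replicate number as a block (0.204%), 0 were called. Their median log2 difference was 0.02, with 39 genes higher and 29 lower in POLDIP2 KO. By list, 12 were higher and 10 lower among other channels, and 6 and 9 among cotransporters and exchangers. The split was 14 and 4 among genes of RPE fluid and ion transport, and 7 and 6 among regulators and partners. The libraries of the lines did not overlap for 8 of the 68, beside 10.9% of all genes tested.

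Among 22 tested genes of other chloride channels (anoctamins, volume-regulated LRRC8 channels, tweety homologues and further CLC genes), the largest differences were those of ANO9, ANO4 and TTYH2. ANO9, an anoctamin, had 5.67, 0 and 10.4 normalised counts for WT, compared with 52.9, 34.2 and 17.9 for POLDIP2 KO, without overlap (limma adjusted p = 0.561). TTYH2 had 94.5, 162 and 117 in WT against 68.9, 79.8 and 65.5 in POLDIP2 KO, also without overlap (limma adjusted p = 0.647). ANO4 was highest in the replicates 1, with 82.2 and 32.0 in the replicates 1 and 4.88 to 11.5 in the other 4 libraries. LRRC8E, a subunit of the volume-regulated anion channel, had 665, 466 and 785 for WT, compared with 1091, 968 and 909 for POLDIP2 KO, without overlap (limma adjusted p = 0.514). TTYH3 was the most abundant gene of this list at 12218 to 17027 normalised counts per library. The values of WT and POLDIP2 KO overlapped for ANO6, a calcium-activated scramblase and channel, at 6505 to 9469, and for LRRC8A, the obligatory subunit of the volume-regulated anion channel, at 3675 to 4958 normalised counts per library.

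Among 15 tested chloride cotransporters and exchangers, the largest differences were in SLC26A1, SLC26A11 and SLC26A4, with log2 differences of -0.75, -0.70 and 0.30 (limma adjusted p = 0.9998, 0.981 and 0.9998). SLC26A1 and SLC26A4 had few reads, with 4 to 25 and 8 to 18 recovered per library. The lowest SLC26A1 value, of 4 reads, was that of POLDIP2 KO replicate 1. SLC12A2, the sodium, potassium and chloride cotransporter that loads RPE cells with chloride, had 1919, 1522 and 1295 normalised counts for WT, compared with 1238, 1355 and 1465 in POLDIP2 KO. SLC4A2, an anion exchanger, was the most abundant of the list at 14768 to 17128 normalised counts per library.

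Among 18 tested genes of RPE fluid and ion transport, AQP1 and CACNB2 were among those with the largest differences. CACNB2, a calcium channel beta subunit, had 17.0, 32.1 and 18.8 normalised counts for WT, compared with 6.15, 13.0 and 11.9 for POLDIP2 KO, without overlap (limma adjusted p = 0.858). AQP1, a water channel, was highest in the replicates 1, at 34.0 in WT and 48.0 in POLDIP2 KO, and at 4.18 to 19.9 in the other libraries. The potassium channel gene KCNJ13, which is typical of mature RPE, had 3 reads in POLDIP2 KO replicate 3 and was listed at 0 in the other libraries. By the limma F test of replicate number 1 of the 18 was called, against 0.913% of all genes. An unadjusted p value under 0.05 was found for 9 of the 18, against 18.9%. The gene called was CA9, a carbonic anhydrase induced by hypoxia. It had 4741 and 8234 normalised counts in the replicates 1 against 2309 to 4486 in the others (limma F test, adjusted p = 0.0407). That call was lost by edgeR (adjusted p = 0.0544), without the trend (0.202) and with any 1 library left out (0.103 to 0.264).

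Among 13 tested regulators and binding partners, WNK3, SGK1 and GOPC had the largest differences between the lines, at -0.21, -0.50 and 0.10 on the log2 scale with a limma adjusted p value of 0.9998 each. SGK1, a serum and glucocorticoid induced kinase that acts on ion channels, was called by replicate number, with 2528 and 2048 normalised counts in the replicates 1 against 408 to 787 in the other 4 libraries (limma F test, adjusted p = 0.0262), a call lost without the trend (adjusted p = 0.168) and with any 1 library left out (0.0767 to 0.241). SGK1 was the only 1 of the 13 called by the limma F test of replicate number, against 0.913% of all genes. An unadjusted p value under 0.05 was found for 4 of the 13, against 18.9%. EZR, which ties membrane proteins such as CLIC5 and CFTR complexes to actin, was abundant at 23810 to 40114 normalised counts per library.

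Over the 6 libraries, the genes whose log2 values followed BEST1 most closely were TMEM230, SLC35B4, HTD2, GEMIN4 and NMD3, with Pearson correlations of 0.994 to 0.987. A high correlation does not mean a change of like size. TMEM230 had 3285 to 3620 normalised counts per library, whereas BEST1 ran from 61.4 to 669. GEMIN4 had 1395 and 1866 normalised counts in the replicates 1 and 2174 to 2454 in the others. For CLIC6 they were CDHR1, FAR2P2, RASSF2, SPNS3 and RAX, with correlations of 0.997 to 0.985. RASSF2 had 607, 587 and 362 normalised counts for WT, compared with 226, 252 and 207 for POLDIP2 KO. CDHR1, a photoreceptor cadherin, had 54.8, 37.1 and 10.4 in WT and at most 0.814 in POLDIP2 KO, which is 1 read. RAX, a homeobox gene of the eye field, had 47.2, 17.1 and 8.35 in WT and likewise at most 1 read in POLDIP2 KO. These correlations were chosen as the highest of 14684 genes over 6 libraries and describe these libraries only.

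Within 250 kb of CLIC6, the 2 tested protein-coding neighbours, RCAN1 and RUNX1, had log2 differences of -0.22 and -0.20 (limma adjusted p = 0.9998 for both). Of 10 such neighbours of BEST1, none had an adjusted p value under 0.05, and 1 had an unadjusted one, the fatty acid desaturase gene FADS2, with 17409, 32165 and 24871 normalised counts for WT, compared with 15101, 14145 and 17686 in POLDIP2 KO (limma adjusted p = 0.651).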

How the data were processed

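RNA of 3 WT and 3 POLDIP2 KO libraries of ARPE-19 was measured. The signal in each column is a normalised count that the authors made before they deposited it, with Salmon 1.8, a sum to genes on GRCh38 by tximport and a DESeq2 1.34.0 size factor. The annotation release is not given in the sources used here. Symbols, positions and lengths come from GENCODE release 44 (34152 of 37902 identifiers matched). All columns were mapped to samples.

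Each value was divided by the smallest value above 0 of its column to recover reads. All values came out whole within 0.001. The lines were compared with limma 3.58.1 (R 4.3.3) on log2(normalised count + 1), mean of at least 10, eBayes with trend, Benjamini-Hochberg over 14684 genes, thresholds 0.05 and 1.5-fold. Fold changes of low genes are understated by the added count. An exact permutation test of 3 against 3 libraries cannot go under 0.1, and was not used. Replicate number was tested by an F test with the line in the model. Levels per kb use the union of exons. The 5 genes most like BEST1 or CLIC6, neighbours within 250 kb, and the 3 largest differences of each list were named by rule, and other genes of the lists were named after their values were seen. Some genes that the rule names are not reported here.

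The members and lists were chosen with earlier results of these data known. The deviations of same-numbered libraries across genes had correlations of 0.315, 0.137 and 0.129, and those of the others ran from -0.259 to 0.147. WT replicate 3 with POLDIP2 KO replicate 2, at 0.147, lay above the same-numbered values of replicates 2 and 3. Of the same-numbered pairs, only that of replicate 1 lay above every pair of different numbers, and these correlations were not tested. The pairs given follow the replicate numbers of the labels. The scripts were tested on simulated data. Alternatives were other added counts and filters, recentred libraries, no trend, the replicate block, edgeR 4.0.16, DESeq2 1.42.0, and each library left out. Replicates are labelled as biological, and nothing more is said of them. Intervals are limma 95% confidence intervals of the log2 difference between the lines. Their variance comes from the spread between libraries, drawn towards the trend over all genes.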

Additional observations from a re-analysis of the deposited data

How the results depend on the processing

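With each of the 6 libraries left out in turn, the limma calls between POLDIP2 KO and WT went from 25 to 0 to 5 (5 without WT replicate 1, 4 without POLDIP2 KO replicate 1 and 0 without any of the other 4, with 701 to 1081 genes at an unadjusted p value under 0.05), those for replicate number from 134 to 0 to 2, and the log2 difference ranged from -0.18 to 1.41 for BEST1 and from -1.48 to -1.17 for CLIC6. Calls between the lines numbered 16 with a mean of at least 50 and 248 by DESeq2. Calls for replicate number numbered 11 without the trend, 71 by edgeR and 1509 by DESeq2. With the replicate block, 30 genes were called between the lines, and the block left the 6 channel genes and the 68 other transport genes without a call. The difference of CLIC6 was -1.31 to -1.28 and that of BEST1 0.41 to 0.79 across 9 alternatives that kept all libraries, with edgeR and DESeq2 giving the lowest BEST1 values. The sign of BEST3, CLIC4 and CLCN2 changed in some of the settings, with values between -0.36 and 0.27, and that of CLCN3 did not. With the length of the longest transcript, CLCN2 and BEST1 exchanged places in WT, and 8 pairs of neighbours in the order overlapped, against 9 with the union of exons. The cause of these changes was not tested. The depth limits CLIC3, CLIC5 and CFTR, which lie near the floor of 3 reads.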
